A study of Mus musculus with 10 samples.

Results

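The genes described here are 7 mouse chemokines of the CXC family, Cxcl9, Cxcl10, Cxcl11, Cxcl12, Cxcl13, Cxcl14 and Cxcl16, taken by gene symbol from a table of 12535 genes, and all 7 were found. Their RNA was measured in macrophages sorted as CD45+CD11b+F4/80+ cells (a leukocyte, a myeloid and a macrophage surface marker) in 10 libraries of 3 groups. Tumour-associated macrophages (TAM) came from pancreatic tumours 14 days after orthotopic implantation of MT4, a KPC organoid line that models pancreatic ductal adenocarcinoma. The cKO-labelled TAM (n = 3) came from mice labelled C57/BL6 Ahr fl/fl Lys M, where Cre recombinase at the lysozyme locus, active in myeloid cells in general, should remove Ahr, the gene of the aryl hydrocarbon receptor. The control TAM (n = 3) came from C57/BL6 Ahr fl/fl mice, and the resident macrophages (n = 4) from the healthy pancreas of C57/BL6 WT mice. The floxed allele is shared by both TAM groups and is not named for the resident group, so tumour and genotype cannot be told apart in a comparison with resident macrophages.

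Chemokines are small secreted proteins that direct the migration of cells carrying the matching receptor. CXCL9, CXCL10 and CXCL11 are induced by interferons and attract activated T cells and NK cells through CXCR3. CXCL12 and CXCL13 are homeostatic chemokines: CXCL12 retains and guides many cell types through CXCR4 and is scavenged by ACKR3, and CXCL13 draws B cells into follicles through CXCR5. CXCL14 is made constitutively in many epithelia, and CXCL16 is a transmembrane chemokine that binds CXCR6, takes up oxidised lipoprotein and is released from the cell by the proteases ADAM10 and ADAM17. Tumour macrophages are a known source of CXCR3 ligands, and serosal macrophages of the mouse are a known source of CXCL13.

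Cxcl9, Cxcl10 and Cxcl11 lie side by side on the minus strand of chromosome 5 (GRCm38, GENCODE M21), within 44.1 kb. Cxcl9 spans 92321347 to 92328079, Cxcl10 spans 92346638 to 92348889 and Cxcl11 spans 92359544 to 92365485. Cxcl13 lies on the plus strand of the same chromosome, 3.59 Mb away (95956951 to 95961068). Cxcl12 is on chromosome 6 (117168535 to 117181367, plus strand), Cxcl14 on chromosome 13 (56288643 to 56296551, minus strand) and Cxcl16 on chromosome 11 (70453983 to 70459984, minus strand). The annotation calls Cxcl11 a polymorphic pseudogene and the other members protein-coding; C57BL/6 mice carry a frameshift in Cxcl11 and make no functional CXCL11 protein.

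Promoter windows from RefSeq (GRCm38.p6), 250 bases before to 50 after the annotated start, were matched to 5 members by symbol. Windows of 4 members are shown, 3 that were higher in tumour macrophages and 1 that was highest in resident macrophages, each from 5′ to 3′ on the gene's strand. Capitals mark matches on either strand to 3 motifs: the interferon-stimulated response element (GAAA, any 2 bases, GAAA), the interferon-gamma activated site (TTC, any 3 bases, GAA) and the NF-kB motif (GGGA, any 4 bases, CC). Matches of different motifs did not overlap.
Cxcl9 (chr5:92328030-92328329, minus strand): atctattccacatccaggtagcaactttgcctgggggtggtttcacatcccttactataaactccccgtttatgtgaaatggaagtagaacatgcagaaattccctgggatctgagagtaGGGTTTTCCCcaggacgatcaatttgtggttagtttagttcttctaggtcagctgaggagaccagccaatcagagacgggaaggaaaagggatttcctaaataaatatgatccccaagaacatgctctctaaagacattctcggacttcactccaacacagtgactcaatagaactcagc
Cxcl10 (chr5:92348840-92349139, minus strand): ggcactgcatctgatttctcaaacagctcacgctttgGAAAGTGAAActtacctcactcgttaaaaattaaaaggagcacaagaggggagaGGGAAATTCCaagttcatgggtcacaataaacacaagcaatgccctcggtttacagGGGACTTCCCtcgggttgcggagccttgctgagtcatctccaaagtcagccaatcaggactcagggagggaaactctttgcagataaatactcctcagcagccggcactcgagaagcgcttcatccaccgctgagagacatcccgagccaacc
Cxcl14 (chr13:56296502-56296801, minus strand): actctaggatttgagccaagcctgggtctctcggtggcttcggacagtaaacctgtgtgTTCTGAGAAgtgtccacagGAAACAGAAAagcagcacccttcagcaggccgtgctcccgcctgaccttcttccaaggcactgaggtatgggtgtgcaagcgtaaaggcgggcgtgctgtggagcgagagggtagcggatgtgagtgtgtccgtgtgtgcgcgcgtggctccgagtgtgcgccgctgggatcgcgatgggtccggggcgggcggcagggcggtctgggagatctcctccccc
Cxcl13 (chr5:95956689-95956988, plus strand): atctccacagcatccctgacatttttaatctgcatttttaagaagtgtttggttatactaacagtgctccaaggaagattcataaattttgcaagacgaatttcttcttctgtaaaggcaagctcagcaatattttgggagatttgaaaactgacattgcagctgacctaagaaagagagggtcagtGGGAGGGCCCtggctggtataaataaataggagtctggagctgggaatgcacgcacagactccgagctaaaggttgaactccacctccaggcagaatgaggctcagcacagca
The Cxcl10 window held the interferon element as GAAAGTGAAA, at bases -213 to -204 from the start, and 2 NF-kB matches, GGGAAATTCC and GGGACTTCCC, the second of which reads as a match on both strands. The Cxcl9 window held 1 NF-kB match, GGGTTTTCCC, as read on the printed strand. The Cxcl14 window held both an interferon element, GAAACAGAAA, and an interferon-gamma site, TTCTGAGAA. In the Cxcl13 window only an NF-kB match, GGGAGGGCCC, was found, and the Cxcl12 window held none of these 3 motifs. Over 27025 promoters of the same length, 1 per gene, 3.49% held the interferon element, 8.47% the interferon-gamma site and 20.5% the NF-kB motif. The core of the element bound by the aryl hydrocarbon receptor, GCGTG, was in the windows of Cxcl10, Cxcl13 and Cxcl14 and in 32.5% of all promoters. A match is a run of letters and was not tested for binding.

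The values are FPKM, fragments scaled for gene length and library size. Levels are compared between genes on that scale, although the gene lengths used for it are not given in the sources. One read could be sized from the low values, which gave scaled library totals of 10126006 to 25620530 reads and whole read numbers for all members but Cxcl14. Ahr itself stood at 9.65 to 11.2 FPKM in the cKO-labelled libraries, at 6.91 to 7.51 in control TAM and at 3.84 to 4.46 in resident macrophages. Since exons outside the floxed part also count towards that value, the deletion is not checked by it, and the group keeps its label as its name. The sort genes were present in every group, with Ptprc, which encodes CD45, at 84.2 ± 2.87, 103 ± 3.18 and 69.0 ± 3.31 FPKM (SD) in cKO-labelled TAM, control TAM and resident macrophages, Adgre1, which encodes F4/80, at 497 ± 7.72, 590 ± 2.78 and 706 ± 14.9, and Itgam, which encodes CD11b, at 59.7 ± 3.32, 75.9 ± 5.23 and 31.4 ± 0.995. Acinar enzyme genes, which mark pancreatic exocrine cells, summed to 334 to 348 FPKM in cKO-labelled TAM, 82.4 to 88.2 in control TAM and 26878 to 28556 in resident libraries over 12 of 14 listed genes. The series text counts as many mice as libraries, but no label ties a library to its mouse, so p-values measure the spread between these libraries, which may be partly technical. In bulk RNA, fewer cells of a type and less RNA per cell cannot be told apart.

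Differences were tested with limma on log2(FPKM + 1) across 11127 genes, with p-values adjusted over all of them by the Benjamini-Hochberg method. A gene was called at an adjusted p under 0.05, and log2 differences are on that scale, where changes of weakly expressed genes come out too small. Set against resident macrophages, control TAM had 4 of the 7 members called higher, 2 called lower and 1 that did not pass. In that comparison 77.1% of all genes tested were called (39.0% higher, 38.1% lower), so the count of calls does not set the members apart. The libraries of the groups did not overlap for 6 of 7 members, beside 73.9% of all genes. In cKO-labelled against control TAM, 1 member was called higher and 2 lower, where 39.6% of all genes were called (20.5% higher, 19.1% lower), and 3 of 7 did not overlap, beside 51.4% of all genes. Against resident macrophages, cKO-labelled TAM had 5 members higher and 2 lower, where 77.4% of all genes were called (40.2% higher, 37.2% lower), and 7 of 7 did not overlap, beside 75.5% of all genes. The median log2 difference of the members was 1.43 in the first comparison, -0.05 in the second and 1.27 in the third, beside 0.00, 0.01 and 0.02 over all genes tested. When libraries were rescaled to a common FPKM total, 66.2% of the calls in the first comparison were higher, against 50.6% as deposited, and the median gene moved up by 0.18. In the second, 32.8% were then higher, against 51.8%, with the median gene moved by -0.07, and in the third 62.0%, against 52.0%, with the median gene moved up by 0.12.

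**Figure D1:**
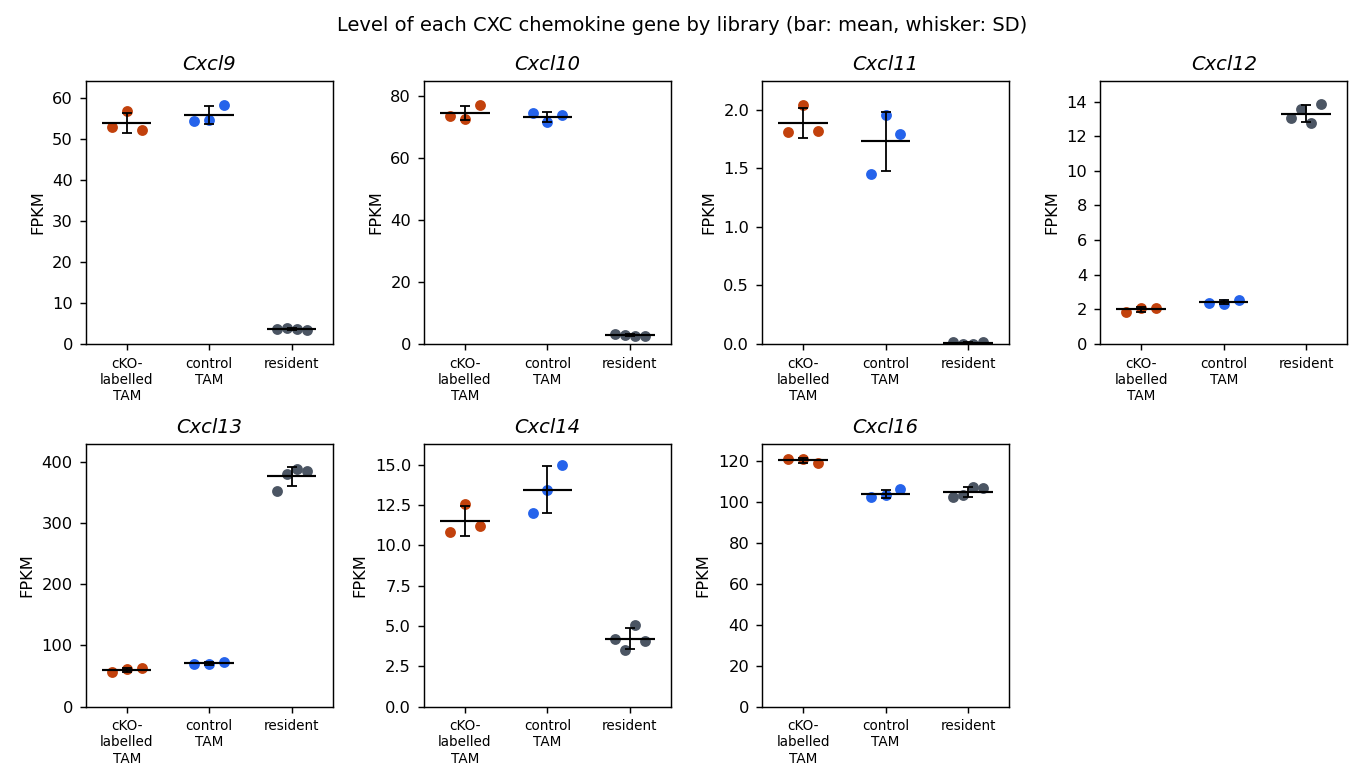
FPKM of each chemokine gene (vertical axis, linear from 0) in every library of the 3 groups; points are libraries, bars are means and whiskers SD. Cxcl9, Cxcl10, Cxcl11 and Cxcl14 sit higher in both TAM groups, Cxcl12 and Cxcl13 sit higher in resident macrophages, and Cxcl16 lies between 102 and 121 FPKM in all libraries.

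Among the interferon-induced ligands, Cxcl10 stood at 73.8, 72.8 and 77.2 FPKM in cKO-labelled TAM, at 74.7, 71.7 and 74.1 in control TAM, and at 3.25, 2.77, 2.56 and 2.68 in resident macrophages. Every tumour library was thus far above every resident library, and the 2 tumour groups overlapped. The mean in control TAM was 26.1-fold that in resident macrophages, a log2 difference of 4.29 ± 0.06 (SE, adjusted p = 9.01e-19), which ranked 37 among rises over all genes tested. Between cKO-labelled and control TAM the log2 difference was 0.02, with a 95% interval of -0.11 to 0.15 (adjusted p = 0.802), and its sign turned under rescaling, quantile normalization and without cKO-labelled replicate 3.

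Cxcl9 read 53.0, 56.8 and 52.4 FPKM in cKO-labelled TAM, 54.6, 54.8 and 58.5 in control TAM and 3.65, 3.87, 3.72 and 3.41 in resident macrophages. The pattern was that of Cxcl10, with no overlap between tumour and resident libraries and overlap between the tumour groups. The mean in control TAM was 15.3-fold that in resident macrophages (log2 difference 3.61 ± 0.05, adjusted p = 2.02e-18), and the difference between cKO-labelled and control TAM was -0.05 (95% interval -0.16 to 0.07, adjusted p = 0.4997). The order of the pair differed between tissues: Cxcl10 was 1.38 ± 0.0969 times Cxcl9 in cKO-labelled TAM and 1.31 ± 0.0508 times in control TAM, but 0.771 ± 0.0900 times in resident macrophages (SD), and these ratios did not overlap between tumour and resident libraries.

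Cxcl11 was low in all groups, with 1.81, 2.04 and 1.82 FPKM in cKO-labelled TAM, 1.45, 1.95 and 1.79 in control TAM, and 0.0189, 0, 0 and 0.0175 in resident macrophages. The cKO-labelled libraries held 114, 133 and 177 reads of it and the control TAM libraries 71, 75 and 102, whereas the 4 resident libraries held 2 reads in all. Per read of library total, the ratio to resident macrophages was 185 in cKO-labelled TAM (exact 95% interval 50.9 to 1533, for counting error only) and 169 in control TAM (46.4 to 1405). The fitted log2 difference of 1.43 between control TAM and resident macrophages (adjusted p = 9.85e-11) depends on the added constant and was 4.07 with a constant of 0.1. Cxcl11 did not differ past the threshold between the TAM groups (log2 difference 0.08, 95% interval -0.10 to 0.26, adjusted p = 0.460). Cxcl10 shares 133 exon bases with Art3, on the opposite strand, which is not analysed here. On the strand opposite to Cxcl11 the annotation places the processed pseudogene Gm2673, which shares 1582 exon bases with it, and the libraries carry no strand information.

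The genes next to the CXCR3 ligand cluster were higher in control TAM too, by less. All 5 measured neighbours within 200 kb on either side were called higher, where 39.0% of all genes were. Naaa, a lysosomal amidase, averaged 206 FPKM in control TAM and 77.1 in resident macrophages (log2 difference 1.41), and Nup54, a nuclear pore gene next to Cxcl11, averaged 14.9 and 11.2 (log2 difference 0.38).

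CXCL12 and CXCL13 transcripts ran the other way. Cxcl13 stood at 55.9, 61.5 and 62.5 FPKM in cKO-labelled TAM, at 69.7, 69.3 and 72.5 in control TAM and at 352, 379, 388 and 384 in resident macrophages, where it was the most abundant member. Its mean ranked 1189 of 12535 genes in cKO-labelled TAM, 981 in control TAM and 145 in resident macrophages. No library of any group overlapped with another group. The log2 difference between control TAM and resident macrophages was -2.40 ± 0.04 (SE, adjusted p = 4.12e-17), a mean 5.33-fold higher in resident macrophages. The mean in cKO-labelled TAM, 59.97 ± 3.58 FPKM, was 14.9% lower than that in control TAM, 70.5 ± 1.75 (SD, n = 3 each; log2 difference -0.23 ± 0.05, adjusted p = 0.00101).

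CXCL12 is best known from stromal and endothelial cells. Cxcl12 was at 1.85, 2.07 and 2.09 FPKM in cKO-labelled TAM, at 2.39, 2.33 and 2.54 in control TAM and at 13.1, 13.5, 12.7 and 13.9 in resident macrophages. The 3 groups again did not overlap. Control TAM was lower than resident macrophages (log2 difference -2.06 ± 0.06, adjusted p = 5.69e-14), with a resident mean 5.49-fold higher. The cKO-labelled mean was 2.003 ± 0.134 FPKM and the control mean 2.42 ± 0.109 (SD, n = 3 each), a log2 difference of -0.19 ± 0.07 that passed narrowly (adjusted p = 0.0406). That call was lost when any 1 of the 6 TAM libraries or resident replicate 2 was left out, with adjusted p between 0.0505 and 0.138, and when only the TAM groups were fitted. The proportion of Cxcl13 to Cxcl12 varied little: Cxcl13 was 29.9 ± 0.232 times Cxcl12 in cKO-labelled TAM, 29.1 ± 0.599 times in control TAM and 28.3 ± 1.503 times in resident macrophages (SD). The resident ratios, 26.9 to 30.4, span those of both TAM groups.

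Cell-type markers that moved beside these differences were measured in the same libraries. Tissue-resident macrophage genes (12 of 12 in the table, none at 0 in every library of a group) summed to 1368 to 1412 FPKM in cKO-labelled TAM, 866 to 878 in control TAM and 6866 to 7094 in resident macrophages. They were thus lower in control TAM than in resident macrophages in 12 of 12 cases, beside 38.1% of all genes. Cxcl12 and Cxcl13 were lower there too. In cKO-labelled against control TAM the resident genes were higher in 8 and lower in 3 of 12 cases, beside 20.5% and 19.1% of all genes. Cxcl12 and Cxcl13 were lower in that comparison. Large peritoneal macrophage genes (15 of 15) summed to 5699 to 5787, 5991 to 6068 and 1012 to 1039 FPKM in the same order of groups. B cell genes (5 of 8) summed to 241 to 244, 85.8 to 94.7 and 897 to 916 FPKM, and fibroblast and stromal genes (9 of 11) to 130 to 134, 166 to 170 and 38.5 to 42.2. The fibroblast sum does not speak for each gene: in cKO-labelled against control TAM, Postn, Lum and Col1a1 were called higher and Dcn and Col1a2 lower of 7 tested (median log2 difference 0.28). Endothelial genes (6 of 9) summed to 17.4 to 19.9, 9.14 to 9.75 and 3.49 to 4.15 FPKM in the same order. Macrophage identity genes (10 of 10) summed to 14790 to 15134, 23463 to 23560 and 32116 to 32941 FPKM, and recruited monocyte genes (10 of 10) to 1230 to 1277, 1388 to 1403 and 131 to 142. The identity sum does not speak for each gene either. In control TAM against resident macrophages 4 of 10 identity genes (Cd68, Itgam, Fcgr1 and Spi1) were called higher and 6 lower. Of all genes, 39.0% were called higher and 38.1% lower there. In cKO-labelled against control TAM, 6 of 10 identity genes were called lower, 1 (Spi1) higher, and 3 (Cd68, Cd14 and Fcgr1) did not pass. The median log2 difference of the 10 identity genes between the TAM groups was -0.24. The lysozyme gene Lyz2 was at -0.80, and the lysozyme locus is the one that carries Cre in the cKO-labelled mice. None of the measured markers of these lists was at 0 in every library of a group, and their part in the chemokine differences was not tested.

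Cxcl14 was higher in tumour macrophages, at 10.8, 12.6 and 11.2 FPKM in cKO-labelled TAM, 12.0, 13.4 and 14.9 in control TAM and 4.21, 3.49, 5.04 and 4.09 in resident macrophages. All 6 tumour libraries exceeded all 4 resident ones, and the tumour groups overlapped. Control TAM were 3.20-fold resident macrophages (log2 difference 1.48 ± 0.09, adjusted p = 5.48e-10). Between cKO-labelled and control TAM the log2 difference was -0.20, with a 95% interval of -0.42 to 0.01 (adjusted p = 0.118), which passed the threshold only when libraries were rescaled to a common total (-0.28, adjusted p = 0.0325). It was -0.13 without control TAM replicate 3. Epithelial and tumour markers (9 of 10 measured, none at 0 in every library of a group) summed to 276 to 290 FPKM in cKO-labelled TAM, 272 to 279 in control TAM and 9.55 to 11.2 in resident macrophages. Fibroblast and stromal sums were also higher in both TAM groups, as given above, and the part of either list in Cxcl14 was not tested. The CD45 gate is meant to leave out epithelial, stromal and acinar cells.

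Cxcl16 was the member for which control TAM and resident macrophages did not differ past the threshold. It stood at 121, 121 and 119 FPKM in cKO-labelled TAM, 102, 103 and 106 in control TAM and 102, 103, 107 and 107 in resident macrophages. The cKO-labelled libraries were all above the others, while the control TAM and resident libraries overlapped. Between control TAM and resident macrophages the log2 difference was -0.01 with a 95% interval of -0.08 to 0.05 (adjusted p = 0.742). Rescaling to a common total turned that difference to 0.20 (adjusted p = 4.20e-05), or 0.02 relative to the shift of the median gene. The cKO-labelled mean was 120.1 ± 1.07 FPKM and the control mean 104 ± 1.98 (SD, n = 3 each), a log2 difference of 0.21 ± 0.03 (adjusted p = 0.000160), and the difference from resident macrophages was 0.20 (adjusted p = 2.98e-05). Rescaling gave 0.13 (adjusted p = 0.00886) and 0.33 (adjusted p = 1.45e-07) for these differences, or 0.20 and 0.21 relative to the shift of the median gene, and quantile normalization gave 0.11 for the second (adjusted p = 0.00499). On the opposite strand Zmynd15 shares 552 exon bases with Cxcl16 and was at 7.05 to 7.98 FPKM in cKO-labelled TAM, 4.99 to 5.85 in control TAM and 12.0 to 12.9 in resident macrophages.

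**Figure D2:**
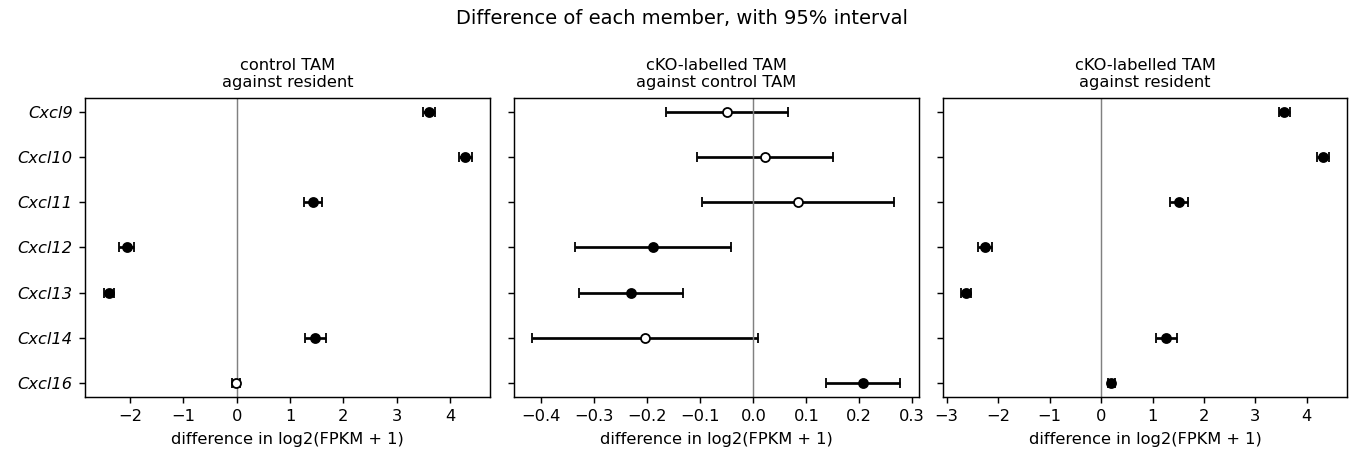
Difference in log2(FPKM + 1) of each member (horizontal axis, with its own scale in each panel) in the 3 comparisons; lines are 95% intervals, filled points passed an adjusted p of 0.05 and open points did not. Differences between the TAM groups run from -0.23 to 0.21, against -2.40 to 4.29 between control TAM and resident macrophages.

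The make-up of the 7 transcripts differed between tissues. The members summed to 324 ± 5.53 FPKM in cKO-labelled TAM, 321 ± 7.79 in control TAM and 505 ± 17.97 in resident macrophages. Cxcl13 made up 18.5% ± 0.826 of that sum in cKO-labelled TAM, 21.9% ± 0.0557 in control TAM and 74.5% ± 0.589 in resident macrophages. The 3 interferon-induced members made up 40.3% ± 0.178, 40.8% ± 0.375 and 1.29% ± 0.118 in the same order, and Cxcl16 made up 37.1% ± 0.822, 32.3% ± 0.266 and 20.8% ± 0.398. In resident macrophages the order of levels was Cxcl13, Cxcl16, Cxcl12, Cxcl14, Cxcl9, Cxcl10 and Cxcl11, with the libraries of Cxcl14 and Cxcl9 overlapping. In both TAM groups Cxcl16 was highest; Cxcl10 and Cxcl13 followed, with Cxcl13 at 0.804 ± 0.0441 times Cxcl10 in cKO-labelled TAM and 0.960 ± 0.0238 times in control TAM, against 135 ± 18.7 times in resident macrophages. Cxcl9, Cxcl14, Cxcl12 and Cxcl11 came next. Neighbours in that order overlapped for Cxcl13 and Cxcl9 and for Cxcl12 and Cxcl11 in cKO-labelled TAM, and for Cxcl10 and Cxcl13 in control TAM.

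**Figure D3:**
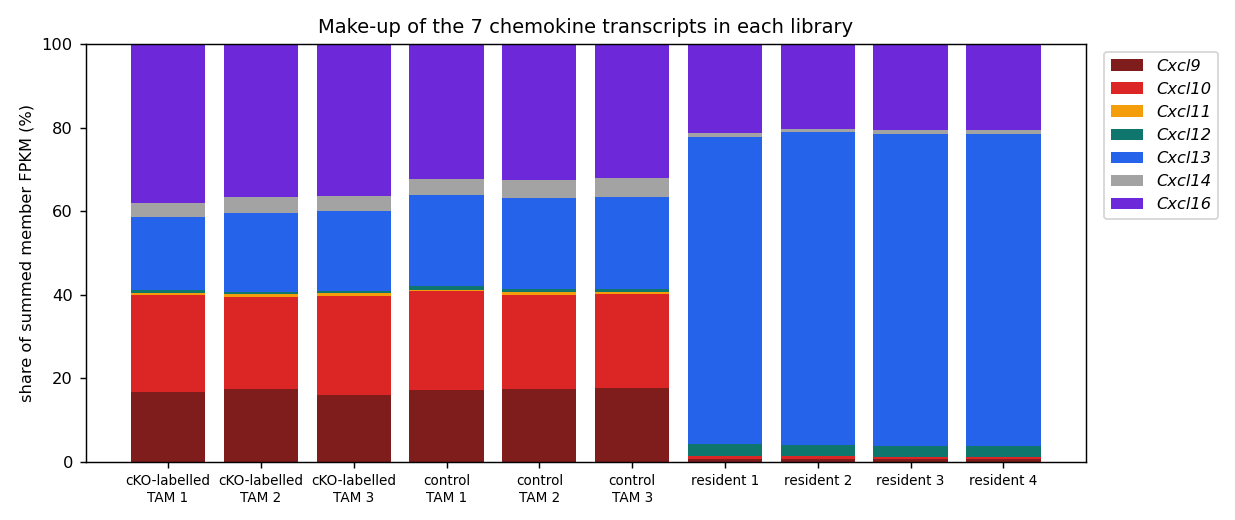
Share of each member in the summed FPKM of the 7 chemokine genes (vertical axis, percent) in every library, cKO-labelled TAM at the left, control TAM in the middle and resident macrophages at the right. Cxcl13 fills 73.6% to 74.9% of the resident bars, and Cxcl16, Cxcl10, Cxcl13 and Cxcl9 share most of the TAM bars.

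Receptors of these ligands were measured in the same cells. Of 7 listed, 4 passed the filter, while Cxcr5, Ackr1 and Ackr4 are not analysed here. In control TAM against resident macrophages 3 rose and 1 fell, where 77.1% of all genes were called (39.0% higher, 38.1% lower). In cKO-labelled against control TAM 2 rose and 1 fell, where 39.6% of all genes were called (20.5% higher, 19.1% lower). Cxcr3, the receptor of CXCL9 and CXCL10, was at 4.97, 4.60 and 4.40 FPKM in cKO-labelled TAM, 1.48, 1.43 and 2.23 in control TAM and 10.9, 12.4, 11.5 and 11.8 in resident macrophages. It thus ran against its ligands in control TAM compared with resident macrophages (log2 difference -2.23, adjusted p = 1.98e-12) and was higher in cKO-labelled than in control TAM (1.07 ± 0.10, adjusted p = 6.00e-07), where the ligands did not differ past the threshold. Ackr3, which scavenges CXCL11 and CXCL12, was at 28.1, 28.3 and 27.6 FPKM in cKO-labelled TAM, 31.2, 31.3 and 32.8 in control TAM and 2.11, 1.90, 1.997 and 1.69 in resident macrophages. Its rise in control TAM over resident macrophages was 3.49 ± 0.06 on the log2 scale (adjusted p = 1.49e-17), opposite to that of Cxcl12. The smaller fall between cKO-labelled and control TAM (log2 difference -0.17, adjusted p = 0.0337) was lost when any 1 of the 6 TAM libraries was left out and with a constant of 0.1.

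Cxcr4, the signalling receptor of CXCL12, averaged 8.18 ± 0.682 FPKM in cKO-labelled TAM, 8.65 ± 0.498 in control TAM and 5.13 ± 0.237 in resident macrophages. Control TAM exceeded resident macrophages (log2 difference 0.65, adjusted p = 2.33e-07), and the TAM groups overlapped (-0.07, adjusted p = 0.445). Cxcr6, the receptor of CXCL16, averaged 2.47 ± 0.149, 1.19 ± 0.249 and 0.328 ± 0.149 FPKM in the same order of groups, and was higher in cKO-labelled than in control TAM (0.67 ± 0.11, adjusted p = 0.000176), as Cxcl16 was. T and NK cells also express Cxcr3 and Cxcr6, and dendritic and B cells can express Cxcr3; the CD11b and F4/80 gates are meant to leave out T, NK and B cells. T and NK markers (11 of 12 measured, none at 0 in every library of a group) summed to 24.9 to 26.4 FPKM in cKO-labelled TAM, 16.2 to 19.97 in control TAM and 10.1 to 11.3 in resident macrophages, and dendritic cell markers (9 of 12, none at 0) to 1816 to 1943, 1247 to 1280 and 3420 to 3708. B cell sums, given above, ran in the order of Cxcr3. Of 8 dendritic markers tested, 5 were lower in control TAM than in resident macrophages (38.1% of all genes). The other 3, Flt3, Fscn1 and Ccl22, did not pass. In cKO-labelled against control TAM 6 were higher (20.5% of all genes) and 2, Flt3 and Siglech, did not pass. The dendritic sum thus does not speak for each gene. Of 10 T and NK markers, 8 and 6 were higher in these comparisons, where 39.0% and 20.5% of all genes were. Cd4 was lower in the first and Il7r in the second. The part of these cells in the receptor levels was not tested.

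**Figure D4:**
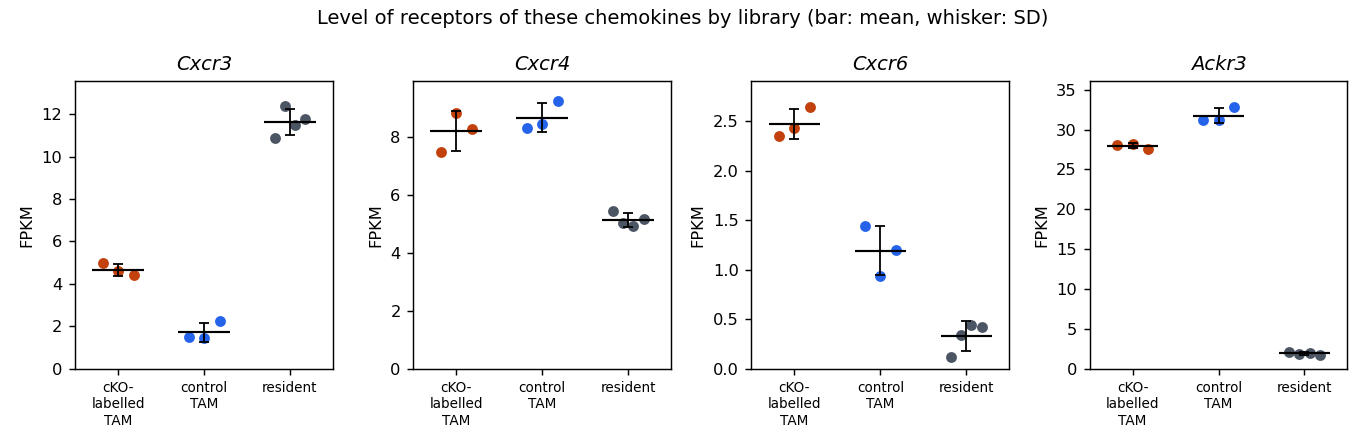
FPKM of Cxcr3, Cxcr4, Cxcr6 and Ackr3 (vertical axis, linear from 0) in every library; points are libraries, bars are means and whiskers SD. Cxcr3 is highest in resident macrophages and Ackr3 in the TAM groups, while Cxcr3 and Cxcr6 sit higher in cKO-labelled than in control TAM.

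Most interferon-related genes rose along with Cxcl9, Cxcl10 and Cxcl11 in the tumour. In control TAM against resident macrophages, 18 of 19 tested genes of the interferon-gamma induced list rose and 1 fell, with a median log2 difference of 1.84 beside 0.00 over all genes tested, of which 39.0% were called higher. Cd274, which encodes the checkpoint ligand PD-L1, averaged 68.0 ± 0.374 FPKM in control TAM and 3.69 ± 0.253 in resident macrophages, and the protease inhibitor gene Serpina3g 116 ± 3.88 and 8.32 ± 0.636. Ciita, the transactivator of MHC class II, was the one that fell, by 0.16 on the log2 scale, which turned under rescaling. Of the type I interferon induced genes 19 of 20 rose and 1, Oas2, fell (median 0.92), with the nucleic acid sensor Zbp1 at 86.2 ± 0.730 FPKM in control TAM and 13.7 ± 0.455 in resident macrophages. In interferon signalling 12 of 18 rose and 5 fell, namely Ifngr1, Ifnar1, Jak1, Tyk2 and Irf9 (median 0.69). Socs1, a feedback inhibitor, averaged 38.0 ± 2.14 FPKM in control TAM and 2.22 ± 0.461 in resident macrophages. Ifngr1, a chain of the interferon-gamma receptor, fell to 234 ± 8.63 FPKM in control TAM, against 435 ± 7.92 in resident macrophages.

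In cKO-labelled against control TAM, interferon-gamma induced genes were called lower in 10 of 19 cases and higher in 3, Irgm1, Igtp and Cd40 (median log2 difference -0.18, beside 0.01 over all genes), where 19.1% of all genes were lower and 20.5% higher, while Cxcl9, Cxcl10 and Cxcl11 did not pass the threshold. Nos2, the inducible nitric oxide synthase, averaged 11.4 ± 1.28 FPKM in cKO-labelled TAM and 30.8 ± 0.859 in control TAM (log2 difference -1.36, adjusted p = 4.42e-09). Serpina3g stood at 83.0 ± 1.06 and 116 ± 3.88 FPKM (-0.48, adjusted p = 5.16e-06), and the guanylate-binding protein gene Gbp5 at 20.3 ± 1.10 and 28.1 ± 1.31 (-0.45, adjusted p = 4.40e-05). Of the type I interferon induced genes 4 rose (Rtp4, Oasl2, Usp18 and Oas1a) and 4 fell (Ifit2, Rsad2, Cmpk2 and Ddx58) of 20 (median 0.04), a share near the 39.6% of all genes called in this comparison, with Ifit2 at 19.1 ± 1.58 and 32.2 ± 1.13 FPKM and Rtp4 at 122 ± 5.96 and 92.7 ± 6.38. Of the signalling genes 7 rose and 5 fell of 18 (median 0.04), with Jak1, Tyk2, Stat2 and Irf8 among the falls.

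**Figure D5:**
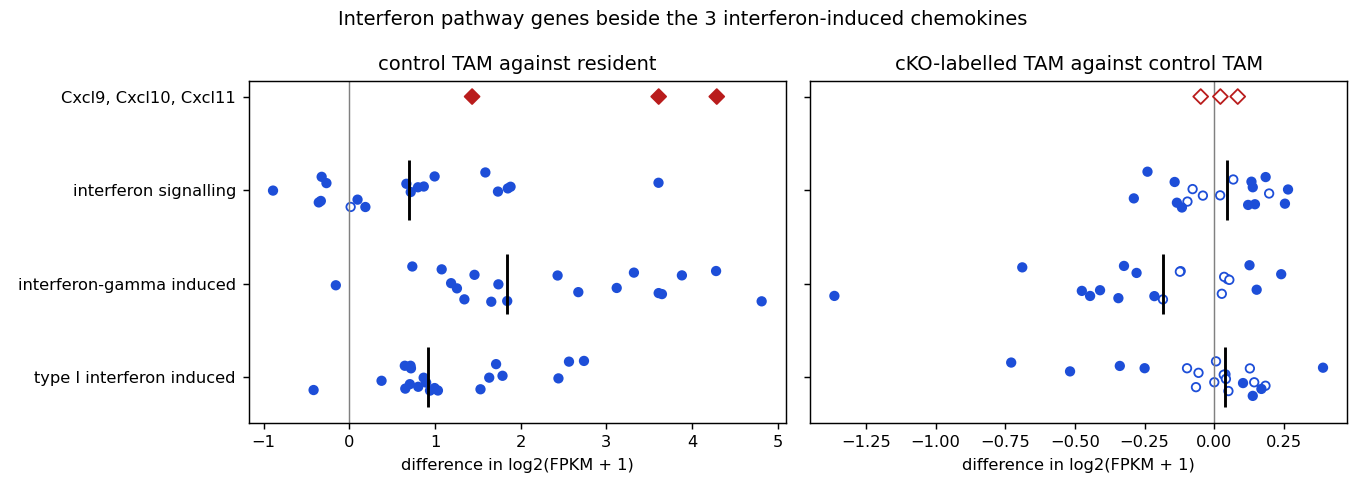
Difference in log2(FPKM + 1) (horizontal axis, with its own scale in each panel) of Cxcl9, Cxcl10 and Cxcl11 (diamonds) and of the genes of 3 interferon lists (circles, spread vertically for sight); filled symbols passed an adjusted p of 0.05 and vertical bars are list medians. In the left panel most genes lie right of 0, though 5 of 18 interferon signalling genes were called lower. In the right panel the 3 chemokines lie near 0 while the interferon-gamma induced genes have a median of -0.18.

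Enzymes that release or trim these chemokines were measured in the same libraries. Adam10 and Adam17, which shed CXCL16, were at 29.0 ± 0.445 and 41.3 ± 1.08 FPKM in cKO-labelled TAM and at 45.7 ± 1.47 and 55.6 ± 2.45 in control TAM (log2 differences -0.64 and -0.42, adjusted p = 1.77e-07 and 5.36e-06). Cxcl16 itself was higher in cKO-labelled TAM, and a link between it and Adam10 and Adam17 was not tested. In resident macrophages they were at 29.1 ± 1.86 and 38.1 ± 1.64 FPKM. Of 12 listed enzymes, 3 rose (Ctsk, Mmp9 and Mmp2) and 5 fell (both sheddases, Anpep, Mmp12 and Ctss) in cKO-labelled against control TAM. There 39.6% of all genes were called (20.5% higher, 19.1% lower). In control TAM against resident macrophages 11 rose and 1 fell, where 77.1% of all genes were called (39.0% higher, 38.1% lower). The gene that fell was Mmp9, a gelatinase also listed as a neutrophil marker, at 41.5 ± 0.324 FPKM in control TAM and 329 ± 3.73 in resident macrophages; in cKO-labelled TAM it was at 123 ± 4.28. Neutrophil markers (9 of 10, none at 0) summed to 1627 to 1788 FPKM in cKO-labelled TAM, 1287 to 1314 in control TAM and 359 to 368 in resident macrophages. Mmp9 is itself in that sum and made up most of it in resident macrophages. In control TAM against resident macrophages 7 of the 9 markers were called higher, beside 39.0% of all genes. Only Mmp9 was lower and 1 marker did not pass. The part of neutrophils in the Mmp9 level was not tested. Ctsk, which encodes the collagenolytic protease cathepsin K, had the largest difference of the list between the TAM groups, at 96.0 ± 1.71 FPKM in cKO-labelled TAM and 8.23 ± 1.52 in control TAM (log2 difference 3.41, adjusted p = 2.16e-13).

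The lymphotoxin and non-canonical NF-kB genes, a pathway known to induce Cxcl13 in lymphoid stroma, were called in both directions. In control TAM against resident macrophages 7 of 11 rose and 4 fell, where 39.0% of all genes were higher and 38.1% lower, so the falls are near the share of all genes. Those that fell were Tnfrsf1b, Relb, Nfkb2, whose direction turned under rescaling, and the kinase gene Map3k14 (5.45 ± 0.418 FPKM in control TAM and 10.1 ± 0.487 in resident macrophages). In cKO-labelled against control TAM 7 of 11 rose and 1, Tnfrsf1b, fell, where 20.5% of all genes were higher and 19.1% lower. Those that rose included Ltb, which encodes lymphotoxin beta, at 14.8 ± 0.783 and 5.86 ± 0.383 FPKM (log2 difference 1.203, adjusted p = 2.92e-09), and Nfkb2, at 47.0 ± 1.76 and 36.5 ± 0.958 (0.35, adjusted p = 1.42e-05). Cxcl13 was lower in the same comparison, and a link between it and these genes was not tested. Genes of CXCL12 regulation and hypoxia, a list that also holds Cxcr4 and Ackr3, rose in 8 of 8 cases in control TAM against resident macrophages, where 39.0% of all genes did. In cKO-labelled against control TAM 1 rose (Tgfb1) and 3 fell (Egln3, Slc2a1 and Ackr3) of 8, with Egln3, an oxygen-sensing hydroxylase, at 28.7 ± 0.543 and 61.4 ± 0.540 FPKM.

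The genes whose pattern over the 10 libraries was nearest to a member were found by the root mean square difference of centred log2(FPKM + 1), among 10448 named genes tested. Nearest to Cxcl9 was Il1rn, the interleukin-1 receptor antagonist (0.0888), which averaged 161 FPKM in cKO-labelled TAM, 153 in control TAM and 13.2 in resident macrophages. Nearest to Cxcl10 were Cd24a (0.102), the epithelial gene Wfdc2 (0.121) and the keratin gene Krt7 (0.132), of which Krt7 averaged 19.2, 18.9 and 0.204 FPKM in the same order. For the other members only the nearest gene is named. This scale shrinks differences at low FPKM, so genes near by it can differ in fold. In resident macrophages Cxcl10 averaged 2.82 FPKM and Wfdc2 0.0196. Nearest to Cxcl12 was Tppp (0.0872), to Cxcl13 Tpbgl (0.0804) and to Cxcl14 Tctn2 (0.0981). Nearest to Cxcl11 was Dennd3 (0.0556). Nearest to Cxcl16 was Brk1 (0.0263), an actin regulator at 200 FPKM in cKO-labelled TAM, 177 in control TAM and 179 in resident macrophages.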

How the data were processed

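RNA of 10 libraries was amplified with SMART-Seq v4 and tagmented with Nextera XT, per the labels' protocols; such libraries keep no strand. RNA came from either of 2 extraction kits, with no record here of which library got which. The authors deposited 1 table of FPKM with 1 column per library, matched to samples by title. STAR, edgeR, mm10 and GRCm38 appear, without role, per the submitters' processing notes. How genes were filtered, which lengths were used and how libraries were scaled is not given in the sources used here.

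The tested genes (11127) had 1 FPKM or more in 3 or more libraries, and all 7 members passed. Limma 3.58.1 (R 4.3.3) was fitted to log2(FPKM + 1) with 3 group means in 1 model, empirical Bayes moderation with a variance trend, and Benjamini-Hochberg adjustment at 0.05. The fit was tested on simulated data. Values are mean ± SD over libraries; log2 differences carry the SE of the fit. Intervals of read ratios cover counting error only.

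Reads were recovered with the longest annotated transcript (GENCODE M21) as gene length; 85.8% to 87.1% of values up to 200 reads came out whole within 0.05. In the 12 pairs of libraries from 1 group, median squared differences came to 1.58 to 1.88 times counting noise, and each library counted as 1 replicate.

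Members, the 19 gene lists and the motifs were chosen with earlier results of these data known. Named genes are the members, their receptors, up to 4 called genes of largest change per list, and the genes nearest by pattern; the text names part of them. Adam10 and Ifngr1 (control TAM against resident macrophages), Adam17, Ciita, Naaa, Nfkb2 (same comparison), Nup54, Zmynd15 and the further genes listed to account for small counts were chosen after their values were seen; Ptprc, Itgam and Adgre1 are the sort genes. Alternatives were pseudocounts of 0.1 and 0.5, no filter and a raised one, 3 other scalings, only the 2 groups compared, no variance trend, a replicate block, and leaving out each library. A result that needs a withheld item is not reported here.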

Additional observations from a re-analysis of the deposited data

How the results depend on the processing

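The 7 members were recomputed in 3 comparisons under other pseudocounts, filters, scalings and fits, and without each library, 417 values in all. Of these 403 kept their direction and their side of the threshold, 9 lost a call, 1 gained one and 4 changed sign. Cxcl16 in control TAM against resident macrophages was 0.20 (adjusted p = 4.20e-05) when rescaled to a common total. Cxcl10 in cKO-labelled against control TAM was -0.0566 rescaled and -0.00237 with quantile normalization, neither past the threshold, and -0.00314 to 0.0386 without 1 library. Cxcl12 in the same comparison lost its call with only the 2 groups compared (log2 difference -0.19, adjusted p = 0.0777) and with the replicate number as a block (-0.19, adjusted p = 0.0588), and ran from -0.21 to -0.15 without 1 library. Cxcl14 there was -0.28 and passed when rescaled. In control TAM against resident macrophages the endothelial marker Kdr turned to -0.0735 with quantile normalization. The causes were not tested. The stricter filter left Cxcl11 out.

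Replicate numbers did not pair the samples: deviations of same-numbered libraries correlated at -0.061 to 0.111, and 2 of 6 TAM libraries correlated best with their own number. With the replicate block 8396, 4342 and 8437 genes were called, against 8577, 4410 and 8612. The number of genes called stayed within 1.5 times under every alternative run. Low counts limit Cxcl11, with 2 resident reads.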
